A study of Mus musculus with 24 samples.

Results

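Axon guidance genes encode the ligands and receptors that steer growing axons, and the 73 protein-coding genes described here cover the semaphorins, ephrins, Slits and netrins with their plexin, neuropilin, Eph, Robo, Dcc and Unc5 receptors. Genes were chosen by name (Sema, Plxn, Epha, Ephb, Efna, Efnb, Robo and Unc5 genes, Slit1 to Slit3, the netrins and netrin-G genes, Dcc, Nrp1 and Nrp2), and every measured CpG inside them or within 2 kb of them was kept. This gave 4953 of the 762162 CpGs in the table (0.650%), and all 73 genes had at least 1. Of these CpGs, 2422 lay within 1 kb of an annotated transcript start (promoter), 2351 lay elsewhere in the gene (body, with 389 in exons and 1962 in introns) and 180 lay in the flanks. The name rule also took in Unc50 and Unc5cl, with 6 and 23 CpGs, which share the letters of the netrin receptors but are not netrin receptors.

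Guidance cues act at short or long range. Semaphorins bind plexins, with neuropilins as co-receptors for the secreted class 3 members. Ephrins are held at the membrane and signal with Eph receptors in both directions between touching cells. Slits repel axons through Robo receptors, and netrins attract through Dcc and repel through Unc5 receptors. In the adult dentate gyrus these molecules are known for roles in mossy fibre growth, in dendritic spines and synapses and in the placement of newborn granule neurons. Methylation of CpG-rich promoters generally accompanies silencing, whereas bodies of active genes are commonly methylated.

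Reduced representation bisulfite sequencing (RRBS), which measures cytosine methylation in the CpG-rich fragments released by a restriction enzyme, had been performed on micro-dissected dentate gyrus of female C57BL/6JRj mice. The groups were Young STD (standard cage, 1.5 months old, n = 5), Aged STD (standard cage, 14 months old, n = 7) and Aged ENR (environmental enrichment with toys and social contact until an age of 14 months, n = 7). The labels name no allele beyond the strain, and each library was 1 mouse. Young ENR mice, with 5 libraries in the labels, were not analysed here, so the housing comparison is available at 14 months only. Enrichment changes the cage, the company and the objects together, so these cannot be told apart.

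Per mouse, 64.3% to 95.2% of all CpGs were measured and 62.6% to 94.7% of the axon guidance CpGs, and 453 of the latter (9.15%, against 9.06% of all CpGs) were measured in all 19 mice. The table holds percentages without read numbers, so the depth behind each value is unknown. Libraries differed in which CpGs they covered. An index of this, the mean young level of the CpGs that a library covered, was 31.5 ± 0.632 (SD) in Young STD, 26.6 ± 6.91 in Aged STD and 29.5 ± 3.88 in Aged ENR libraries, and was lowest in Aged STD replicates 3, 4 and 6 (19.5 to 20.8). Across the 19 mice the mean level of axon guidance CpGs correlated with this index (Pearson r = 0.894, a description). The mice also came in 2 library series, numbered 27 and 37, each with mice of all 3 groups. Of 21 marker genes of neurons and glia, 13 had at least 3 promoter CpGs, with Young STD levels of 1.91% to 6.54% in the 5 neuronal genes, 0.831% (Cnp), 10.04% (Mbp) and 55.4% (Mag, SD 27.5 over 4 CpGs) in oligodendrocyte genes, 16.2% to 36.3% in 3 astrocyte genes and 2.20% and 5.30% in 2 endothelial genes. Low promoters were thus found in neuronal, oligodendrocyte and endothelial genes, and no microglial marker was measured. Levels follow in the order Young STD, Aged STD, Aged ENR libraries. Of the astrocyte genes, Aldh1l1 was at 36.3%, 24.2% and 28.1%, Aqp4 at 16.2%, 14.3% and 16.4% and Slc1a3 at 16.5%, 17.8% and 17.7%. Of the oligodendrocyte genes, Mag was at 55.4%, 42.1% and 48.3%, Mbp at 10.04%, 8.08% and 8.89% and Cnp at 0.831%, 2.94% and 1.65%. Of the endothelial genes, Kdr was at 5.30%, 8.66% and 12.2% and Cldn5 at 2.20%, 2.15% and 2.08%. Aged STD means of Aldh1l1, Aqp4, Mag and Mbp were thus below those of Young STD, and those of Slc1a3 and Cnp above. Young STD and Aged STD SDs were 1.72 and 1.72 for Slc1a3 and 1.96 and 2.92 for Cnp. The 13 marker promoters differed by −13.2 to 3.36 points with age, −1.49 to 6.16 with housing and −8.23 to 6.91 for Aged ENR against Young STD. In each comparison 0 of 13 passed the limma test, and the part of cell types in the differences given below was not tested. Methylation does not measure expression, and in bulk tissue a different share of a cell type and a different level within its cells cannot be told apart.

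The sequences below show the contrasts of promoter level and the named single CpGs, from the mm10 (GRCm38) genome, 5′ to 3′ on the strand given. In the first group, stretches of 200 bases from promoters, capitals mark the measured CpGs. The Efna4 stretch, on the minus strand at chr3:89337691-89337890, was nearly free of methylation, with 0.050% ± 0.342 (SD, n = 5) over 13 CpGs in Young STD mice. The first Plxna1 stretch, on the minus strand at chr6:89362042-89362241 near the main start of the gene, was at 1.21% ± 1.68 over 13 measured cytosines at 12 CpG positions. The second Plxna1 stretch, also minus strand at chr6:89332148-89332347, lies beside an annotated transcript start far inside the gene and was at 95.3% ± 6.92 over 9 CpGs.
Efna4: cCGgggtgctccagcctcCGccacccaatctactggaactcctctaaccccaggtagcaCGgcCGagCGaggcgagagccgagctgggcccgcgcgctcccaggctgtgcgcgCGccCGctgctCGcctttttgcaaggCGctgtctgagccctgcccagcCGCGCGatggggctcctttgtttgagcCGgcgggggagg
Plxna1 near the main start: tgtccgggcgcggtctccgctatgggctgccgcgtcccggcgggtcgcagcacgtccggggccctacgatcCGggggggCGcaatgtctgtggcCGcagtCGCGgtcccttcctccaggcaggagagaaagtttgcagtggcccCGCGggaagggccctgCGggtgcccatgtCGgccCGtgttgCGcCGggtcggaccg
Plxna1 inside the gene: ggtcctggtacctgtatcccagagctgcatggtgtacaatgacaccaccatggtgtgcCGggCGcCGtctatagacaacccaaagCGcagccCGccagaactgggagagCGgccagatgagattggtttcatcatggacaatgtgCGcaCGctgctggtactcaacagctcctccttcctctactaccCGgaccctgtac

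In the second group, windows of 81 bases, capitals mark every CpG and the measured cytosine is base 41. Among CpGs measured in every mouse compared and with an unadjusted p under 0.05, they show those with the largest difference in each direction between ages (Plxnc1 on the minus strand at chr10:94819160-94819240 and Efna5 on the minus strand at chr17:62654622-62654702) and between housings (Plxnd1 on the minus strand at chr6:115957428-115957508 and Efnb2 on the plus strand at chr8:8657282-8657362). The Plxnc1, Efna5 and Efnb2 cytosines are intronic and that of Plxnd1 lies in a promoter window, outside annotated exons.
Plxnc1: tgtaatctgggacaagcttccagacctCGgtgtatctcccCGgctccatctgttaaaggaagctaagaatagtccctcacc
Efna5: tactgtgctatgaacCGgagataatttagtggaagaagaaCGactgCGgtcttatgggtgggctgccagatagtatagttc
Plxnd1: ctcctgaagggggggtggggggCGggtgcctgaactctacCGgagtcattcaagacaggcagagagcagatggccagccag
Efnb2: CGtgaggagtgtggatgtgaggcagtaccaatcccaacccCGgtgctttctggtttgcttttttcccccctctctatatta

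Promoters of axon guidance genes were largely unmethylated and their bodies were not. In Young STD mice, 92.5% of the promoter CpGs were under 20% methylation, against 92.2% in other protein-coding genes. Of the body CpGs, 42.9% were under 20%, 33.0% between 20% and 80%, and 24.1% over 80%. In other genes the body shares were 33.0%, 30.8% and 36.2%, so highly methylated CpGs made up less of the axon guidance bodies. By gene, 58 of 68 promoters with at least 3 CpGs were under 20% and 44 under 5%. Of 67 bodies, 8 were under 20%, 51 between and 8 over 80%, and the body stood above the promoter in 57 of 62 genes with both.

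In every mouse, the body level was lower in axon guidance genes than in other protein-coding genes. Here and below, the level of a region in a mouse is the mean baseline of its CpGs plus the mean deviation of the CpGs measured in that mouse, so that it can pass slightly below 0% or above 100%. Body levels were 38.8%, 38.9%, 38.0%, 42.6% and 41.7% in the Young STD mice. They had a lowest, median and highest value of 31.3%, 36.1% and 41.2% in Aged STD mice and of 34.8%, 36.3% and 40.8% in Aged ENR mice. Group means were 39.997% ± 2.01 (SD), 35.2% ± 3.47 and 36.8% ± 2.02, where other genes had 51.2%, 46.8% and 48.6%. The gap within a mouse was −11.2 ± 0.543 points in Young STD, −11.6 ± 0.510 in Aged STD and −11.8 ± 0.586 in Aged ENR mice, with a range of −12.6 to −10.5 over the 19 mice. Promoters showed no such gap, with 6.03% ± 0.338 in Young STD mice against 6.00% in other genes. The gap was not tested, since genes are not replicates.

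**Figure D1:**
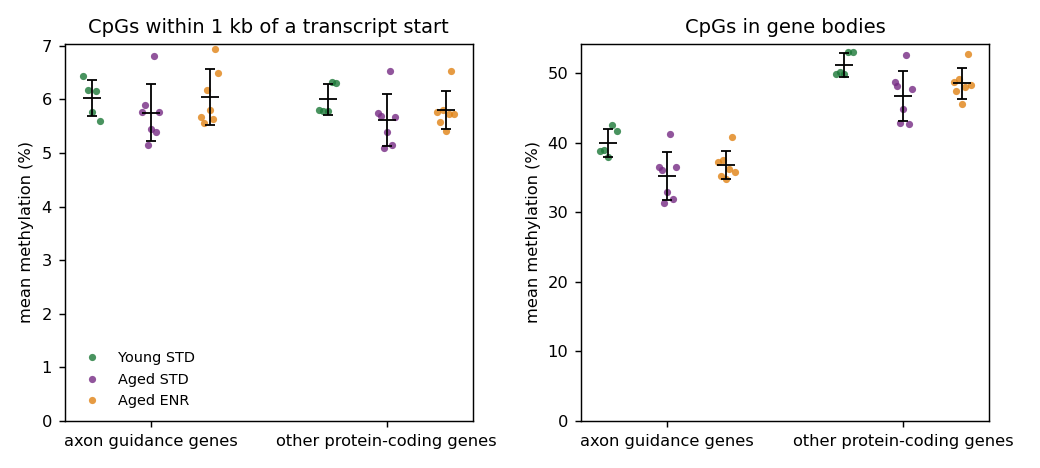
Mean methylation (percent) of axon guidance promoters and bodies in each mouse, by group (points, 1 mouse each; bars, mean ± SD over mice). Promoter levels lie near 6% in every group, and in the body 6 of 7 Aged STD mice lie under the young range.

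Between the promoter and the distant body, axon guidance genes stayed low farther from the start than other genes did. Within 250 bases of the nearest start, young levels were 3.48% in axon guidance genes and 4.04% in other genes. From 1 to 2 kb they were 9.42% ± 1.55 (SD, n = 5) and 27.5% ± 1.06, so that no young mouse overlapped. From 2 to 10 kb they were 34.3% and 49.8%, and beyond 10 kb 53.0% and 59.5%. At 1 to 2 kb, axon guidance genes were also lower within each bin of CpG density, although the CpG-poorest bin held few of their CpGs. With at most 5 CpGs per 300 bases the levels were 36.8% (28 CpGs) and 56.5% (6506 CpGs). With 6 to 15 they were 13.9% (274) and 34.8% (16986), and with 16 or more 2.37% (283) and 5.004% (13959).

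The low stretch was spread over many of the genes. Of 32 axon guidance genes with at least 5 CpGs at 1 to 2 kb, 25 (78.1%) were under 20% there, with a median of 3.64%. Among 2226 other genes the share was 53.1% and the median 16.3%. Epha4, a receptor for both ephrin classes, had 1.72% over 42 CpGs, and Epha10, an Eph receptor without kinase activity, had 0.922% over 37. Among ligands, Efna5 had 4.62% and Ntn1 7.54%, each over 46 CpGs. The transmembrane semaphorin Sema6a had 0.268% over 35 CpGs. Plxna3 (86.1%), Ephb3 (42.1%) and Sema4d (36.1%) were the highest. The choice of RRBS fragments toward CpG-rich sequence sets which genes have CpGs at this distance at all.

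**Figure D2:**
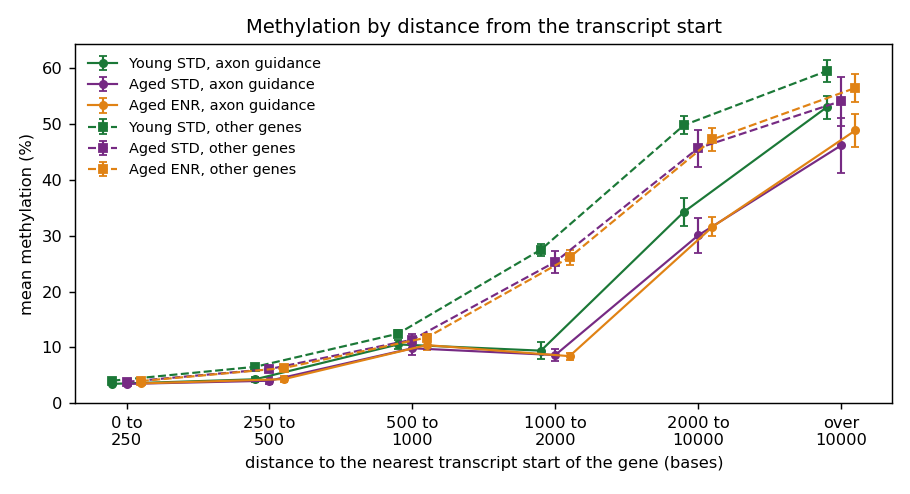
Mean methylation (percent, ± SD over mice) of CpGs by distance from the nearest transcript start, in bins of increasing distance, for each group (solid lines, axon guidance genes; dashed lines, other protein-coding genes). From 1 to 2 kb, young axon guidance genes were at 9.42% and other genes at 27.5%.

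Ligand promoters were mostly close to 0% and ligand bodies spread over a wide range. Median promoter levels in Young STD mice were 3.53% in 18 measured semaphorin genes, 1.44% in 7 ephrin genes, 1.56% in the 3 Slits and 1.53% in 5 netrin genes. Median body levels were 52.5%, 45.3%, 34.9% and 29.2%, respectively. Bodies of the ligand genes ran from 5.75% in Ntn3, a netrin, to 93.2% in Sema3d, a secreted semaphorin.

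Values of chosen ligands follow as the mean ± SD in the order Young STD, Aged STD, Aged ENR. Slit2, a secreted repellent for Robo receptors, had promoter levels of 1.56% ± 0.87, 1.86% ± 1.33 and 2.74% ± 1.96 and body levels of 34.9% ± 4.09, 34.7% ± 9.20 and 34.4% ± 5.59. Ntn1, the classical secreted netrin, had 3.71% ± 5.34, 2.35% ± 1.69 and 0.946% ± 1.25 at its promoter and 29.8% ± 2.57, 27.8% ± 2.90 and 27.9% ± 1.15 in its body. Ntng1 encodes netrin-G1, a membrane-anchored netrin relative, and had promoter levels of 0.55%, 0.48% and 0.82% and body levels of 28.5% ± 3.76, 29.4% ± 6.69 and 35.2% ± 5.44. The 3 body means of Slit2 differed by less than the SD of any group, and the Aged ENR mean of Ntng1 was the highest of its 3 body means.

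Sema3a, a secreted repellent that acts through neuropilin-1, had 14.95% ± 1.14, 13.3% ± 2.31 and 13.8% ± 3.88 at its promoter and 75.8% ± 4.29, 69.5% ± 13.9 and 75.0% ± 3.99 in its body. Sema4d, a membrane semaphorin that binds plexin-B1, had 7.90% ± 3.12, 7.35% ± 3.69 and 4.96% ± 3.83 at the promoter and 56.4% ± 5.96, 59.8% ± 14.8 and 51.9% ± 10.1 in the body. Sema7a, which is held by a lipid anchor, had promoter levels of 2.52%, 1.73% and 2.83% and body levels of 47.4% ± 15.9, 34.9% ± 8.63 and 31.2% ± 11.2. Among the ephrins, Efna5 had a promoter at 1.44%, 1.62% and 1.22% and a body at 49.0% ± 2.09, 45.2% ± 4.26 and 46.9% ± 3.45. Efnb3, a transmembrane ephrin, had 1.17%, 2.03% and 2.66% at the promoter and 20.7% ± 15.4, 11.4% ± 8.26 and 8.78% ± 3.59 in the body.

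Among receptors, median promoter levels were low at 1.85% in both neuropilin genes, 2.32% in 13 Eph receptor genes and 1.21% in 7 genes of the netrin receptor names. The medians of 9 plexin genes (10.4%, with 6 of 9 under 20%) and of the 4 Robo genes (18.3%, with 2 of 4 under 20%) were above those of the ligand families. Promoter CpGs here include those beside annotated starts deep inside a gene. Near the 5′ end, Young STD levels were 1.80% in Plxna1, 2.47% in Plxnb1, 0.78% in Plxnb2, 0.301% in Plxnd1 and 3.796% in Robo3. Plxna3 and Plxnb3 had no measured promoter CpG there, whereas 4 Robo4 CpGs, 849 bases into the gene, were at 68.1%. The higher medians thus do not show more methylation at the main starts of these families. The median body levels were 25.1% in neuropilins, 48.0% in Eph receptors, 64.0% in netrin receptors, 36.2% in plexins and 56.2% in Robo genes. Robo1, the main Slit receptor with Robo2, joined a low promoter to a high body, with promoter levels of 3.05% ± 0.38, 2.48% ± 0.65 and 2.82% ± 1.25 in the order given above and body levels of 77.0% ± 1.86, 74.4% ± 4.76 and 74.1% ± 3.45. Dcc, the attractive netrin receptor, had the lowest promoter of the 58 with at least 10 CpGs, at 0.0877% ± 0.221, 0.558% ± 0.749 and 1.03% ± 1.08, and a body at 69.6% ± 1.56, 66.4% ± 3.32 and 69.8% ± 3.85. Unc5c, a repellent netrin receptor, had promoter levels of 1.74%, 1.22% and 1.50% and body levels of 80.95% ± 14.2, 86.0% ± 10.7 and 86.1% ± 9.07.

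Both neuropilins had low promoters and bodies under the level of the Robo1, Robo2 and Dcc bodies. Nrp1 had 0.769%, 1.12% and 1.63% at its promoter and 19.1% ± 3.83, 12.2% ± 8.32 and 12.9% ± 7.21 in its body. Nrp2 had 2.93%, 1.31% and 1.30% at its promoter and 31.0% ± 5.52, 23.3% ± 5.54 and 23.9% ± 4.85 in its body. Plxna2, a receptor for class 6 semaphorins, had 77 promoter CpGs at 1.18%, 0.78% and 0.79% and only 2 body CpGs. Plxna4, which transmits Sema3a signals with neuropilins, had a promoter at 0.444% ± 0.15, 1.18% ± 1.60 and 3.40% ± 4.23 and a body at 36.2% ± 3.14, 29.3% ± 6.59 and 29.7% ± 4.74.

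Eph receptors, which are receptor tyrosine kinases, ranged from bodies that were nearly unmethylated to bodies that were full. Epha4 had 54 promoter CpGs at 1.39%, 1.21% and 1.76%, and its body was at 20.4%, 20.7%, 15.7%, 28.3% and 22.8% in Young STD mice. In Aged STD mice that body had a lowest, median and highest value of 6.19%, 13.3% and 20.7%, and in Aged ENR mice 10.02%, 13.3% and 26.4%, so that the groups overlapped. Epha7, an ephrin-A receptor, had 108 promoter CpGs, the most of these receptors described here, at 0.92%, 1.39% and 1.27% and a body at 24.3% ± 6.72, 18.1% ± 7.12 and 17.3% ± 8.39. Ephb2, an ephrin-B receptor at excitatory synapses, had 8.72% ± 2.08, 9.24% ± 1.09 and 9.10% ± 1.24 at its promoter CpGs and 29.9% ± 3.37, 26.0% ± 3.65 and 26.2% ± 1.68 in its body. Ephb6, which lacks kinase activity, had 9.32% ± 0.74, 8.49% ± 0.72 and 8.29% ± 1.11 over 49 promoter CpGs and 2 body CpGs.

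Among promoters with at least 10 CpGs, the lowest after Dcc were those of Efna4 (0.231%), a ligand anchored by lipid, and of Plxna4. The highest were those of Sema6c, a transmembrane semaphorin, at 43.9% ± 6.10, of Robo3, a divergent Robo receptor of crossing axons, at 32.0% ± 2.85, and of Plxna1, a co-receptor for class 3 semaphorins, at 25.2% ± 1.06. None of these 3 was an evenly methylated promoter. When promoter CpGs of a gene were split wherever more than 2 kb separated neighbours, 88 clusters with at least 3 CpGs resulted, of which 70 were under 20%, 10 over 80% and 8 between. Of 18 genes with more than 1 cluster, 8 had 1 cluster under 20% and another over 80%, and 9 had clusters more than 50 points apart.

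In 8 of these 9 genes, the least methylated cluster lay at the annotated 5′ end and the most methylated cluster deeper in the gene. Plxna1 had 27 CpGs near its main start at 1.80% and 9 CpGs 30365 bases into the gene at 95.3% ± 6.92, 85.1% ± 10.7 and 85.0% ± 14.8 in Young STD, Aged STD and Aged ENR libraries. Epha2, an ephrin-A receptor, had 48 CpGs at 1.22% and 7 CpGs, 7663 bases inside, at 96.7% ± 3.92. Unc5a, a netrin receptor, had 47 CpGs at 0.34% and 4 CpGs, 46423 bases inside, at 91.1% ± 8.63. Sema6c had 7 CpGs at 1.08% and 7 at 87.5% ± 7.75, and Ephb2 44 CpGs at 0.92% and 4 at 91.6% ± 16.04. The deep clusters lie within 1 kb of starts of other annotated transcripts of the same genes. Starts of all annotated transcripts were used, whatever the transcript type, and whether the deep ones act as promoters was not tested.

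Other genes showed variants of this pattern. Plxnb2, a receptor for class 4 semaphorins, had a series of clusters at 0.78%, 16.6%, 68.0% and 84.4% in Young STD mice. Sema3a was the reverse, with 3 CpGs at its outermost start at 89.3% ± 7.20 and 16 CpGs, 274149 bases inside, at 1.00% ± 0.87. Sema5b, a transmembrane semaphorin, had 37 CpGs at 2.10% and an inner cluster of 24 CpGs at 52.5% ± 13.8, and Robo3 had 5 upstream CpGs at 3.796% and 6 inner CpGs at 45.9% ± 5.17. The inner Ephb6 cluster, of 3 CpGs, was at 83.6% ± 20.6, 71.1% ± 23.6 and 53.8% ± 24.0, against 0.82%, 0.71% and 0.80% over 44 CpGs at its 5′ end.

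**Figure D3:**
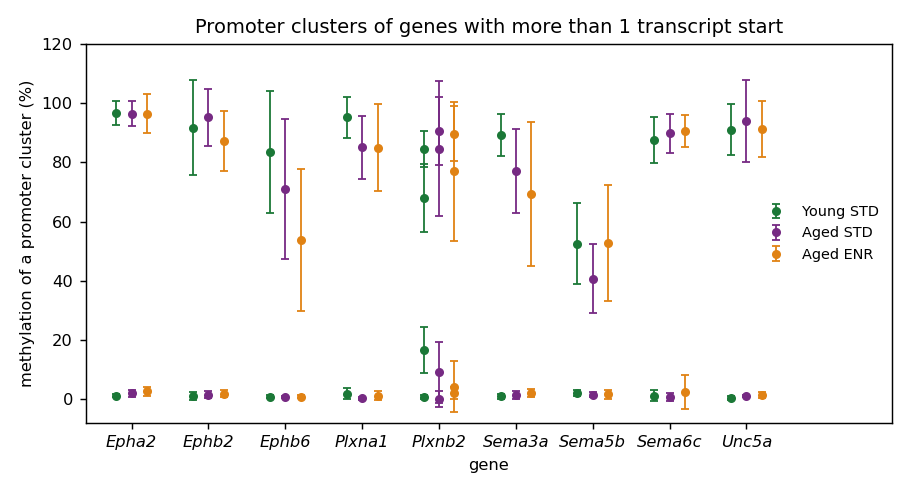
Methylation (percent, mean ± SD over mice) of promoter clusters of the 9 genes whose clusters differ by more than 50 points, by group, each point 1 cluster. Clusters at the main start of Plxna1, Epha2 and Unc5a lie under 3% and clusters inside these genes over 80% in every group.

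Of the axon guidance genes, 3 lie on the X chromosome, of which females silence 1 copy in each cell. Efnb1, a transmembrane ephrin, had 47 promoter CpGs at 28.6%, 26.5%, 24.1%, 21.6% and 17.2% in Young STD mice. Its lowest, median and highest values were 4.73%, 13.6% and 57.0% in Aged STD mice and 8.49%, 25.5% and 46.0% in Aged ENR mice, so that the SD between mice was 4.44 points in the young and 18.6 and 12.8 points in the aged groups. The plexins Plxna3 and Plxnb3 had 3 promoter CpGs each, at 88.0% ± 2.07 and 69.9% ± 5.71 in the 4 and 3 Young STD mice with a value. These CpGs lay about 10260 and 7554 bases into genes of 15624 and 15425 bases, beside inner transcript starts. Neither gene had a measured promoter CpG at its 5′ end. A region value required at least 3 measured CpGs in a mouse, here all of them, which left 2 Aged STD mice for Plxna3, at 59.9% and 100%, and 4 for Plxnb3, at 69.2% ± 10.7. With any measured CpG admitted, as for the promoter clusters above, Aged STD levels were 81.9% ± 18.5 in 4 mice and 66.4% ± 11.1 in 5 mice. In Aged ENR mice the levels with all 3 CpGs were 86.7% ± 6.91 and 70.3% ± 6.33, each in 5 mice.

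The effect of age was addressed by comparing Aged STD with Young STD mice. Body CpGs of axon guidance genes differed by a mean of −4.78 points with age, and the level of every Aged STD mouse but replicate 5 (6 of 7) was under the lowest young value. Other genes differed by −4.42 points, so the axon guidance bodies moved little more than the rest. Promoter levels differed by −0.283 points, or by −0.181 without Young STD replicate 1 and −0.459 without Aged STD replicate 5, and leaving out Aged STD replicate 3 also moved this by over 1.5 times. Within library series 27 the body difference was −4.37 and within series 37 it was −5.56. With the index of library composition in the model it was −2.28, and without the 3 Aged STD libraries of lowest index the mean difference over all axon guidance CpGs went from −2.41 to −1.15. The part of library composition in the age difference was not tested further.

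In points, the age difference was larger in CpG-poorer sequence, where levels also started higher. Young STD mice had 55.8% to 59.4% with at most 5 CpGs per 300 bases and 27.6% to 31.5% with 6 to 15. With 16 or more they had 4.05% to 4.90%, which left little level to lose. Differences relative to these levels were not compared. CpGs with at most 5 CpGs per 300 bases (767) differed by −7.27 points, those with 6 to 15 (1923) by −3.39 and those with 16 or more (2263) by −0.174, against −6.98, −2.77 and −0.0205 in other genes. Introns differed by −5.07 and exons by −3.24 points. Every family had a negative body difference. It was −7.46 points in the neuropilins, −6.92 in the Slits, −6.11 in the semaphorins, −5.80 in the netrin receptors, −4.79 in the plexins, −4.06 in the Eph receptors, −3.78 in the ephrins, −2.97 in the Robo receptors and −2.55 in the netrins. Ligands and receptors as a whole differed by −4.94 and −4.65 points. Family means are given without a test, were not recomputed with 1 mouse left out, and the families were not compared with each other. Aged STD replicate 6 was the lowest of its group in Robo bodies (59.3%, next 63.4%). Young STD replicate 4 was the highest of its group in netrin bodies (29.0%, next 27.2%).

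**Figure D4:**
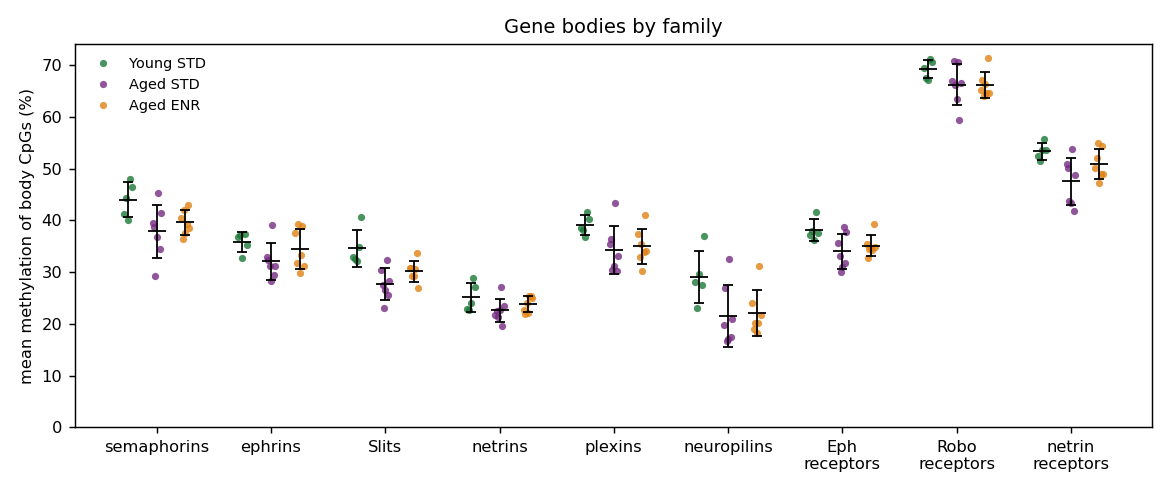
Mean body methylation (percent) of each axon guidance family in each mouse, by group (points, 1 mouse each; bars, mean ± SD). Aged STD means are lower than Young STD means in all 9 families, while ranges overlap in each.

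No CpG, gene region or window of 1 kb of an axon guidance gene passed the tests for age (limma with Benjamini-Hochberg adjustment, adjusted p under 0.05 and, for CpGs, a difference over 25 points). For CpGs, 0 of 3365 were called, where percent called over all CpGs was 0.0%, and the smallest adjusted p was 0.718. At an unadjusted p under 0.05, 153 axon guidance CpGs were lower and 20 higher, which is 5.14% in all against 4.42% of all CpGs tested (3.33% lower and 1.09% higher). Differences over 25 points were lower at 264 and higher at 60 CpGs, where the shares over all CpGs were 7.19% and 2.17%. The median difference was −1.16 points against −0.563 over all CpGs. Over all families together, these shares were near the background.

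Among families, Slit genes had the highest share of CpGs with an unadjusted p under 0.05 for age, with 35 lower and 1 higher of 352 tested (10.2%). The share was 4.42% over all CpGs and 6.20% in bodies of other genes, and body CpGs made up 291 of the 448 Slit CpGs. Semaphorins had 22 lower and 3 higher of 641, ephrins 11 and 2 of 348, netrins 13 and 3 of 366, plexins 15 and 1 of 303, neuropilins 5 and 0 of 107, Eph receptors 26 and 4 of 744, Robo receptors 6 and 2 of 194 and netrin receptors 20 and 4 of 310. Body CpGs held 126 of the lower and 16 of the higher sites of 2033 tested (6.98% in all, other genes' bodies 6.20%), promoter CpGs 21 and 4 of 1215 (2.06%, other genes' promoters 2.38%), both near the share in other genes. With the composition index in the model the whole set split into 87 lower and 77 higher. Among 572 CpGs measured in all mice compared, 1 was lower in all Aged STD than in all Young STD mice (0.175%, background 0.432%).

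Of 150 gene regions (promoter, body or flank with at least 3 CpGs) tested for age, 0 had an adjusted p under 0.05 in limma (background 0.0%). At an unadjusted p under 0.05, 15 were lower and 1 higher, where the background was 7.37% and 1.5%, and with the composition index in the model this was 1 lower and 3 higher. The number of lower regions was 25 without Aged STD replicate 5, 9 without Aged STD replicate 6 and 7 without Young STD replicate 5. Higher regions numbered 2 without Young STD replicate 2 or Aged STD replicate 2. They numbered 0 without Young STD replicate 1, 3 or 4 or Aged STD replicate 1 or 7. Of 67 bodies, 52 (77.6%) differed below 0, with a median of −3.84 points, and 10 (14.9%) had an unadjusted p under 0.05, all lower. Of 9848 bodies of other genes, 73.5% differed below 0, with a median of −3.42 points, and 12.9% had an unadjusted p under 0.05, so the axon guidance bodies were near this background. Of 67 promoters, 3 were lower (Sema3d, Ephb1 and Epha6) and 0 higher, and of 16 flanks 2 were lower (Efna2 and Ntng2) and 1 higher (Sema6a). Besides the bodies described next, the lower ones were those of Epha4, Sema3f, Slit3, Unc5a, Sema5a and Slit1.

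Of the 10 bodies with an unadjusted p under 0.05 for age, 4 with the largest differences are described here. The bodies of Efna2 and Sema7a, with larger differences than the last 3 of these (−13.4 ± 7.48 and −12.5 ± 6.70 points), did not reach that p (0.0969 and 0.0852, limma). Unc5cl, which resembles Unc5 receptors in name and cytoplasmic domains and is not a netrin receptor, had body levels of 79.7%, 76.0%, 76.9%, 88.2% and 77.3% in Young STD mice and 42.1%, 66.6% and 76.2% as the lowest, median and highest in Aged STD mice. In 6 of 7 Aged STD mice the value was under the young range, and Aged ENR mice had 63.1%, 70.9% and 82.8%. The difference was −15.7 points ± 5.10 (SE; 95% interval −26.8 to −4.68), with an unadjusted p of 0.00892 and an adjusted p of 0.427 in limma.

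Unc5d, a netrin receptor of cortical neurons, had 60.5%, 56.1%, 57.9%, 59.5% and 58.5% in Young STD mice and 37.5%, 48.6% and 60.8% in Aged STD mice, 5 of which were below all young and 1 above. The difference was −10.01 ± 4.33 points (adjusted p = 0.532, limma), and −3.95 with the index in the model. The Plxna1 body had 23.5%, 32.7%, 23.3%, 24.0% and 26.0% in Young STD mice and 7.94%, 15.1% and 34.1% in Aged STD mice, with 6 below all young and 1 above. It rests on 8 CpGs and differed by −9.80 ± 4.04 points (adjusted p = 0.516, limma). Sema6d, a transmembrane semaphorin that binds plexin-A1, had 42.7%, 42.2%, 44.7%, 51.8% and 55.7% in Young STD mice. Its Aged STD values were 28.0%, 38.1% and 43.9%, and 5 of 7 mice lay below all young ones. The difference was −9.66 ± 3.75 points (adjusted p = 0.497, limma). With the composition index as a covariate, the differences of Unc5cl, Plxna1 and Sema6d were −10.1, −5.56 and −6.57 points. No promoter or body with at least 5 CpGs and an unadjusted p under 0.05 was higher with age.

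Slit3, a secreted Slit whose gene spans chr11:35121224-35708507, held both windows of smallest p among those lower with age. The first, at chr11:35639001-35640000 with 11 intronic CpGs at least 94463 bases from the nearest start, had 18.7%, 14.4%, 23.5%, 9.34% and 21.8% in Young STD mice. In Aged STD mice the lowest, median and highest were −0.549%, 3.91% and 8.95%, so that all 7 lay below all young mice, and in Aged ENR mice they were 3.77%, 8.60% and 18.02% as the lowest, median and highest (mean 10.2%), overlapping both other groups. The difference was −13.3 ± 2.53 points (unadjusted p = 0.000145, adjusted p = 0.289 over 72491 windows, limma), and with the composition index as a covariate it was −13.2.

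The other Slit3 window, at chr11:35603001-35604000 with 5 body CpGs, had 87.8%, 85.9%, 87.5%, 100% and 90.6% in Young STD mice. In 6 Aged STD mice its mean was 54.9% ± 19.8, with 5 below all young mice and the highest at 92.8%. The difference was −35.4 ± 8.85 points (adjusted p = 0.404, limma). Among 465 windows tested for age, 32 were lower and 4 higher at an unadjusted p under 0.05, where the background was 5.24% and 1.73% and 0.00276% of all windows passed the adjusted threshold. With the composition index in the model 16 windows were lower and 10 higher. The 4 higher windows became 8 without Aged STD replicate 3 and 7 without replicate 4. Of those higher, the Efna5 window at chr17:62654001-62655000, with 3 intronic CpGs, had a mean of 85.0% ± 4.10 in Young STD and 96.1% ± 6.57 in Aged STD mice. A window upstream of Sema6a had values in 2 mice per group only, with 0% in both young mice and 11.3% ± 5.43 in the aged.

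**Figure D5:**
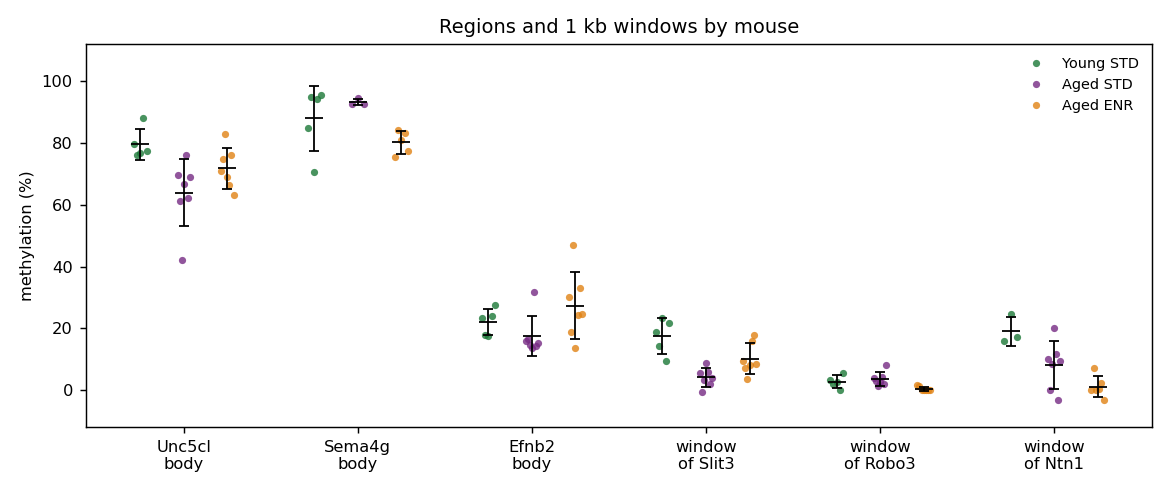
Methylation (percent) of 6 regions in each mouse, by group (points, 1 mouse each; bars, mean ± SD): the bodies of Unc5cl, Sema4g and Efnb2 and 1 kb windows in Slit3, Robo3 and Ntn1. In the Slit3 window all 7 Aged STD mice lie under the young range, and in the Ntn1 window the 6 Aged ENR mice with a value lie below the 3 young ones.

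Single CpGs varied widely between mice. The Plxnc1 cytosine printed above, at position 94819200 of chromosome 10 in the receptor gene for Sema7a, had 28.8%, 71.4%, 65.1%, 100% and 61.8% in Young STD mice and 0%, 26.2% and 59.1% as the lowest, median and highest in Aged STD mice. Aged ENR mice had 14.3%, 44.8% and 94.1%, and all groups overlapped. The age difference was −43.0 ± 16.5 points (adjusted p = 0.760, limma). A cytosine in the Unc5d body, at position 28933728 of chromosome 8, had 26.3%, 4.62%, 55.6%, 89.7% and 75.0% in Young STD mice and a median of 0% in both aged groups, with a highest of 50% in Aged STD and 32.6% in Aged ENR mice.

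The printed Efna5 cytosine was higher in 5 of 7 Aged STD mice than in any young mouse. Young STD mice had 69.8%, 62.0%, 75.8%, 75.8% and 59.1%, Aged STD mice 61.8%, 100% and 100% and Aged ENR mice 59.0%, 89.1% and 100% as the lowest, median and highest. The age difference was +21.4 ± 8.11 points (adjusted p = 0.760, limma), and a cytosine 6 bases away, at 62654656, differed by +8.26 ± 3.26.

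The opposite strand gave a check of such differences, because both strands of a CpG are read from separate molecules. Of 433 axon guidance CpGs with both strands measured, 12 differed by over 25 points with age on the plus strand, by a mean of 35.3 points. The minus strand of the same CpGs differed by 7.67 points in the same direction on average, and by the same sign at 10 of 12. With CpGs taken by the minus strand instead, 16 differed by a mean of 35.4 points, and the plus strand by 7.35 points with the same sign at 11 of 16. For housing the sign was shared at 5 of 7 and 6 of 10, and over all 433 CpGs the differences of the strands correlated weakly (Pearson r of 0.213 for age and 0.184 for housing, a description). Of the named single CpGs, none had its opposite strand measured.

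Housing was addressed by comparing Aged ENR with Aged STD mice, and the same Aged STD mice enter the age comparison, so an opposite sign in the 2 comparisons is not independent evidence. Body CpGs of axon guidance genes were 1.62 points higher in Aged ENR mice, with every Aged ENR value inside the range of Aged STD mice. Other genes differed by +1.79 points. With 1 mouse left out the axon guidance difference ran from 0.953 (without Aged ENR replicate 6) to 2.62 (without Aged STD replicate 5), and leaving out Aged STD replicate 3 or 6 also moved it by over 1.5 times. The difference was +2.04 in series 27 and +1.05 in series 37, and, fitted with the composition index, +0.195. Over all axon guidance CpGs it was +0.884, and it turned to −0.381 without the 3 Aged STD libraries of lowest index. By family, body differences ran from −0.0889 in Robo receptors to +3.44 in netrin receptors, with +2.54 in Slits, +2.46 in ephrins, +1.71 in semaphorins, +1.17 in netrins, +1.11 in Eph receptors, +0.720 in plexins and +0.501 in neuropilins.

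No axon guidance CpG (of 3422, background 0.0%), gene region (of 150, background 0.0%) or window (of 459, background 0.0%) passed the limma tests for housing, with smallest adjusted p values of 0.769, 0.949 and 0.945. At an unadjusted p under 0.05, 18 CpGs were lower and 57 higher in Aged ENR mice, or 2.19% in all against 2.25% of all CpGs. The lower CpGs numbered 30, 31 and 36 without Aged STD replicates 2, 3 and 4. Differences over 25 points were lower at 62 and higher at 150 CpGs, with backgrounds of 2.62% and 4.53%. For regions the counts were 2 lower and 7 higher (background 1.62% and 3.0%) and for windows 7 and 18 (background 1.5% and 2.58%). With 1 mouse left out, lower regions numbered 1 (without Aged STD replicate 5 or Aged ENR replicate 2, 5 or 7) to 4 (without Aged STD replicate 2), and higher regions 4 without Aged STD replicate 3 or Aged ENR replicate 5 or 7. Lower windows numbered 2 without Aged ENR replicate 7, 3 without Aged STD replicate 5 or Aged ENR replicate 2, and 4 without Aged ENR replicate 1 or 3. Of 556 CpGs measured in all mice compared, 0 separated the groups (background 0.0162%). With the composition index in the model, CpGs split into 64 lower and 45 higher, regions into 4 and 3 and windows into 16 and 14, so the excess of higher sites was not kept.

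In 2 transmembrane ligands, body levels differed between housings at an unadjusted p under 0.05. The body of Sema4g, a class 4 semaphorin, had values in 3 Aged STD mice, at 92.5%, 92.7% and 94.5%, and in 5 Aged ENR mice, all lower, from 75.3% to 84.1%. The difference was −13.1 ± 3.40 points over 6 CpGs (95% interval −20.8 to −5.38, unadjusted p = 0.00416, adjusted p = 0.949, limma), while Young STD mice, at 84.7%, 94.7%, 70.7%, 94.2% and 95.5%, spanned both. The Efnb2 body, in a ligand for EphB receptors and Epha4, had 13.6%, 15.2% and 31.9% as the lowest, median and highest in Aged STD and 13.6%, 24.6% and 47.1% in Aged ENR mice, with 2 Aged ENR mice above all Aged STD. It differed by +9.94 ± 4.62 points (adjusted p = 0.949, limma), and Young STD mice had 23.5%, 17.9%, 17.6%, 24.1% and 27.5%.

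Of the 7 regions higher in Aged ENR mice at an unadjusted p under 0.05, 4 were flanks, of 15 flanks tested. Over promoters, bodies and flanks of all genes together, 3.0% were higher at that p. The share among flanks of all genes was not counted, so the 4 flanks are listed without a background of their own. The Efna2 flank was at 16.9% ± 10.3 in Aged STD and 31.8% ± 9.85 in Aged ENR mice (9 CpGs), the Sema5b flank at 5.38% ± 5.80 and 15.9% ± 5.37 (8 CpGs), the Efnb1 flank at 10.6% ± 9.48 and 19.5% ± 4.49 (16 CpGs) and the Ephb4 flank at 1.53% ± 1.59 and 6.70% ± 4.28 (5 CpGs). The groups overlapped in all 4 flanks, and the adjusted p was 0.949 in each (limma).

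The 3 promoters with an unadjusted p under 0.05 for housing differed by at most 5.02 points. Sema3f, a secreted repellent acting through neuropilin-2, had 1.73%, 6.12% and 11.1% in Aged STD and 3.94%, 12.4% and 16.4% in Aged ENR mice, a difference of +5.02 ± 2.06 points. Sema3c, another secreted semaphorin, had 0.029%, 2.43% and 3.49% against 2.56%, 3.44% and 12.2%, a difference of +3.07 ± 1.31 that was +1.85 without Aged ENR replicate 1. Epha5, an ephrin-A receptor, had 0.36%, 2.39% and 4.53% against 0.397%, 0.721% and 1.46%, a difference of −1.32 ± 0.585 that was +0.0702 over the CpGs measured in every mouse. The groups overlapped in all 3 and the adjusted p was 0.949 in each (limma).

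Among windows, the one at chr9:37433001-37434000, with 4 CpGs upstream of Robo3, differed by −3.24 ± 0.910 points between Aged ENR and Aged STD mice, and 6 of 7 Aged ENR mice lay below all Aged STD mice (unadjusted p = 0.00281, adjusted p = 0.945, limma). Its levels were low throughout, with means of 2.78% in Young STD, 3.66% in Aged STD and 0.419% in Aged ENR mice. The Epha5 window at chr5:84415001-84416000 differed by −2.60 ± 1.13. Of those higher, an Ephb2 window at chr4:136700001-136701000 had 0%, 0% and 7.14% in 3 Aged STD mice and 20%, 33.3% and 38.9% in 3 Aged ENR mice. The 4 Young STD mice with a value had 0%, 30.6%, 26.9% and 0%, and so overlapped both. A Slit3 window at chr11:35642001-35643000 had a mean of 88.6% ± 6.96 in 4 Aged STD and 99.6% ± 0.875 in 6 Aged ENR mice.

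The printed Plxnd1 cytosine, in the gene of a vascular and neuronal receptor for Sema3e, had 0%, 14.6% and 30.0% in Aged STD mice and 0%, 0% and 8.16% in Aged ENR mice, a difference of −12.3 ± 4.44 points. The printed Efnb2 cytosine had 0%, 5.26% and 21.9% in Aged STD and 0%, 30.4% and 88.9% in Aged ENR mice, a difference of +26.9 ± 12.6, where Young STD mice had 0%, 2.17%, 4.65%, 7.50% and 0%. Here 4 of 7 Aged ENR mice lay above all Aged STD mice, and without Aged ENR replicate 3 the Efnb2 difference was +17.8. A Robo3 promoter cytosine at 37433888 differed by −6.02 ± 2.58 and a cytosine upstream of Sema3e at 14023429 by +21.2 ± 8.66, and for all 4 the adjusted p was 0.769 (limma).

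Aged ENR were also set against Young STD mice, which differ in age and housing together. Body CpGs differed by −3.16 points (other genes −2.63), with 6 of 7 mice below all young mice, and promoters differed by +0.00882 points. The body difference was −2.33 in series 27, −4.52 in series 37 and, fitted with the composition index, −2.28. By family it was −6.96 in neuropilins, −4.40 in semaphorins, −4.38 in Slits, −4.07 in plexins, −3.06 in Robo receptors, −2.95 in Eph receptors, −2.36 in netrin receptors, −1.38 in netrins and −1.32 in ephrins. These too were not recomputed with 1 mouse left out. In netrins Young STD replicate 4 was the highest young mouse (29.0%, next 27.2%), and in ephrins replicate 3 the lowest (32.7%, next 35.2%).

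In this comparison 0 of 3315 CpGs (background 0.0%), 0 of 150 regions (background 0.0%) and 0 of 461 windows (background 0.00138%) passed in limma, with smallest adjusted p values of 0.640, 0.407 and 0.221. At an unadjusted p under 0.05, 96 CpGs were lower and 32 higher (background 2.56% and 1.4%), or 3.86% in all against 3.95% of all CpGs tested. With the composition index in the model the CpGs split into 84 lower and 77 higher, and regions into 3 lower and 5 higher. For regions the counts without the index were 6 lower and 3 higher (5.31% and 1.71%) and for windows 26 lower and 8 higher (4.23% and 2.16%). Lower regions numbered 14 without Aged ENR replicate 6, 10 without Young STD replicate 3, and 3 without Young STD replicate 4 or 5 or Aged ENR replicate 2, and 1 region was higher without Young STD replicate 3. Higher windows numbered 4 without Aged ENR replicate 2 and 5 without Young STD replicate 3 or Aged ENR replicate 3. Differences over 25 points were lower at 207 and higher at 91 CpGs (5.21% and 2.39%). Of 584 CpGs measured in all mice compared, 1 was lower and 1 higher without overlap (0.342%, background 0.323%).

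The Ntn1 window at chr11:68244001-68245000, with 5 intronic CpGs, had the smallest p. Young STD mice had 15.9%, 24.5% and 17.1% (3 mice with a value), and the 6 Aged ENR mice had a lowest of −3.05% and a highest of 7.20%, all below the young. The difference was −18.0 ± 2.58 points (unadjusted p = 3.35e-05, adjusted p = 0.221, limma), and Aged STD mice, from −3.05% to 20%, overlapped both groups. In the body of Efna2, a ligand for EphA receptors, Young STD mice had 46.05%, 29.6%, 33.9%, 48.1% and 73.3% and Aged ENR mice 15.4%, 28.1% and 40.8%. That difference was −18.5 ± 7.14 points with 5 of 7 Aged ENR mice below all young mice (adjusted p = 0.650, limma). Bodies of Sema7a, Efnb3 and Sema6d differed by −16.2 ± 7.23, −11.95 ± 5.41 and −7.67 ± 3.04 points. Without Young STD replicate 5 the Efna2 difference was −11.7 points, and without Young STD replicate 4 that of Efnb3 was −6.53 points.

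Of promoters, that of Ephb4, an ephrin-B2 receptor of veins and neural cells, had −0.0381%, 1.11%, 2.06%, 0.996% and 0.545% in Young STD and 1.93%, 4.29% and 8.16% in Aged ENR mice. It was higher by 3.81 ± 0.987 points, with 6 of 7 Aged ENR mice above all young mice (unadjusted p = 0.00208, adjusted p = 0.407, limma). The promoter of Epha8, an ephrin-A receptor, was higher by 2.69 ± 1.21 points (adjusted p = 0.707, limma). The third promoter with an unadjusted p under 0.05, that of Sema3b, a secreted semaphorin, rested on 4 CpGs with values in 3 Young STD mice (34.6% ± 27.7) and 6 Aged ENR mice (63.6% ± 10.6), a difference of +29.0 ± 10.8 points (adjusted p = 0.652, limma). A window at the start of Efna1, at chr3:89279001-89280000, differed by −6.17 ± 1.30 points, with 6 of 6 Aged ENR mice below the 4 young mice. The named single CpGs of this comparison lay in Efna2 (−42.9 ± 14.6 points), Unc5d (−40.5 ± 15.05), Epha8 (+31.5 ± 14.0) and Efnb2 (+31.1 ± 14.0), each with an adjusted p of 0.776 (limma). The Epha8 difference was +18.97 points without Young STD replicate 4.

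Genes that act downstream of or beside these receptors were taken from a list of 50 signalling partners and co-receptors with 3384 CpGs. In Young STD mice their promoters were at 3.69% ± 0.162 and their bodies at 47.5% ± 2.06, where axon guidance genes had 6.03% and 39.997%. Their bodies differed by −6.26 points with age, +1.99 with housing and −4.27 between Aged ENR and Young STD mice. For age, 102 of their 2182 tested CpGs were lower and 14 higher at an unadjusted p under 0.05, which is 5.32% in all against 4.42% of all CpGs (3.33% lower and 1.09% higher). Of 92 regions, 13 were lower and 0 higher, where the background was 7.37% and 1.5%, and 0 were called in limma. The list is not independent of the axon guidance genes, since both were measured in the same libraries.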

How the data were processed

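RRBS libraries of single mice were processed by the authors, whose submitters' processing notes name Trim Galore 0.4.0, cutadapt 1.8.1, Bismark 0.16.1 and methylKit 1.5.2 with mm10. Positions read fewer than 10 times in a mouse or with extreme coverage were dropped by the authors, who required values in at least 3 mice per group. The deposited table gives the percent of methylated reads per cytosine and mouse, without read numbers, so depth is unknown and no coverage minimum could be varied. Selecting covered cytosines favours CpG-rich sequence, and reads of 1 position can be copies of few molecules.

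Of 762182 rows, 762162 were CpGs of GRCm38. The number of sample columns without a described sample was 0. Genes were protein_coding genes of GENCODE M21. Percentages were tested with limma 3.58.1 (R 4.3.3) on the percent scale, with trended variance, two-sided, and Benjamini-Hochberg adjustment over all CpGs, gene regions or 1 kb windows (at least 3 CpGs for the latter 2). The study instead tested reads with a chi-squared test. P-values set the difference of group means against the spread between mice, with each variance drawn toward the trend over all CpGs, regions or windows. Set means, family means and shares carry no test. The code was tested on simulated data. Other analyses used Python 3.11.15, numpy 2.4.6, pandas 2.3.3 and matplotlib 3.10.9.

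Named items were, per comparison, up to 4 promoters or bodies per direction (largest difference, at least 5 CpGs, unadjusted p under 0.05), 2 CpGs per direction measured in every mouse compared and 2 windows per direction of smallest p, together with chosen genes of each role, the 3 highest and 3 lowest promoters with at least 10 CpGs, and genes on chromosome X. Regions listed for completeness beside them were chosen after their values were seen. The members and lists were chosen with earlier results of these data known. Alternatives were other variance settings, thresholds, promoter widths and summaries, the library series, composition index or replicate number in the model, and each mouse left out in turn. Leaving out the 3 Aged STD libraries of lowest index, or Unc50 and Unc5cl, was added after the data had been seen.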

Additional observations from a re-analysis of the deposited data

Results flagged for a closer look

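Among 134 groups of values tested for a sample far from the others, 8 were singled out by a gap to the nearest sample that was large against the group's whole range. Chance singles out about 1 in 20 groups, and none of these values has a tested cause.

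The mean of all axon guidance CpGs was 23.4% in Aged ENR replicate 6, where the next highest Aged ENR mouse had 21.2%. This library also had the highest composition index of its group (36.2), and its part in the value was not tested. In the Plxna1 body, Young STD replicate 2 had 32.7% (next 26.0%) and Aged STD replicate 5 had 34.1% (next 16.3%), over 8 CpGs. Aged STD replicate 5 also had 31.9% in the Efnb2 body, where the next mouse had 16.7%, and it had the highest index of all libraries (38.0).

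The other values were in single promoters or windows. Aged ENR replicate 1 had 12.2% at the Sema3c promoter (next 6.00%), Aged STD replicate 4 had 10.5% at the Epha8 promoter (next 3.36%) and Aged STD replicate 7 had 8.24% in the Robo3 window (next 4.16%). Aged ENR replicate 6 had 97.9% in the Slit3 window at 35642001, where the other Aged ENR mice with a value had 100%.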

How the results depend on the processing

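For 118 alternative values and the 266 obtained by leaving out 1 mouse, no call changed, counts of calls and of differences over 25 points stayed within 1.5 times and mean differences moved by less than 1 SD between mice. Counts at an unadjusted p under 0.05 are not among these values, and some moved by more with 1 mouse left out, as given beside them above. Other settings moved some of them too. With 1 fit over all groups, 35 CpGs were lower for housing, 150 lower between Aged ENR and Young STD mice, and 4 regions higher for age. Between Aged ENR and Young STD mice, lower regions numbered 12 with library series in the model and 14 without the variance trend, against 6, and without that trend 2 windows were lower for housing, against 7. Within that SD some mean differences still changed much or turned in sign. With the composition index in the model the difference over all CpGs was −1.03 for age and +0.0721 for housing (−2.41 and +0.884 without it), and that of promoters for age was +0.0776 (−0.283). Leaving out 1 mouse, the housing difference over all CpGs ran from 0.452 to 1.48 and the promoter difference between Aged ENR and Young STD mice from −0.142 to 0.111. The exceptions to the first statement follow, and their causes were not tested unless given. Without the variance trend, 1 CpG was called between Aged ENR and Young STD mice. Restriction to CpGs measured in all mice compared left far fewer CpGs to test. Differences over 25 points then numbered 22 of 572 for age, 4 of 556 for housing and 18 of 584 between Aged ENR and Young STD mice. Without the restriction they numbered 324 of 3365 (9.63%), 212 of 3422 (6.20%) and 298 of 3315 (8.99%). The share was thus also smaller among CpGs measured in all mice compared. A plain mean over the CpGs measured in each mouse, which mixes level with the choice of CpGs, gave mean differences of −6.02 (age), +2.97 (housing) and −3.05 (Aged ENR against Young STD) points over all CpGs, −9.93, +4.52 and −5.40 in bodies, and −1.28 (age) and +0.967 (housing) in promoters. With each gene given equal weight, the housing difference in promoters was +0.866. In the main summary that difference was smaller, at 0.142 to 0.468 with 1 mouse left out. Leaving out 1 mouse, the body difference ranged from −5.78 to −4.13 for age and from 0.953 to 2.62 for housing. Of the named items, 218 alternatives and 490 that leave out 1 mouse kept direction, and the Epha5 promoter turned to +0.0702 for housing with CpGs measured in every mouse.

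Replicate numbers did not pair the mice, since deviations of same-numbered mice correlated by −0.0965 to 0.0516 (housing). With the replicate block, 0 CpGs, regions and windows were called, and CpGs at an unadjusted p under 0.05 for age numbered 71 lower and 27 higher, those for housing 23 and 37. Under the block, 16 windows were lower and 2 higher and 8 regions lower and 1 higher for age, 1 region was lower for housing, and 10 regions were lower between Aged ENR and Young STD mice. Limits are the unknown read depth, the missing values and the small groups. No coverage minimum could be tried because the table holds no read numbers.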
